A study of Mus musculus with 4 samples.

Results

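Adgre1, Adgre4 and Adgre5 encode adhesion receptors of the F4/80 family and were measured here in mouse monocytes cultured with or without all-trans retinoic acid. The members were the probe sets annotated with exactly 1 of these gene symbols. Of the 3 genes, 2 had such a probe set, 1 each for Adgre4 and Adgre1, among 22180 genes represented in the table. The only probe set listed for Adgre5 also carries the symbol of Ddx39a, so Adgre5 has no value of its own here. Adgre4 was chosen by its higher log2 intensity on the retinoic acid arrays than on the DMSO arrays, and its levels are therefore given as a description without a test, whereas Adgre1 was included by family.

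The series holds 4 one-colour arrays in 2 groups. The first group is Ly6c-high bone marrow monocytes kept for 24 h with all-trans retinoic acid at 100 nM (RA, 2 arrays), and the second is the same culture with the solvent DMSO (2 arrays). All cells of both groups were sorted from the pooled marrow of 3 mice and received 20 ng per ml of GM-CSF and 20 ng per ml of interleukin 4, cytokines that drive monocytes toward dendritic cells. Strain, sex and age are not given in the labels, and nothing says that replicates were separate cultures, so p-values measure only the spread between these arrays, which may be technical. In such bulk RNA, fewer cells of a type and less RNA per cell cannot be told apart.

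Adhesion receptors carry a long extracellular region, here with repeated EGF-like domains. It is joined to a membrane-spanning receptor domain of the G protein coupled kind through a segment that in many, not all, of them cleaves itself. Adgre1 encodes F4/80, the surface protein most used to mark mouse macrophages. Adgre4, also called Fire or Emr4, is found on mouse myeloid cells and in blood is known from Ly6C-low monocytes, while its human counterpart is a pseudogene. Adgre5 encodes CD97, a leukocyte receptor that binds CD55, Thy1 and integrins.

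The region around the start of Adgre4 is shown because Adgre4 is the member whose level differed more between the groups, and because retinoic acid acts through receptors that bind DNA. The RefSeq promoter table (GRCm38.p6) held an entry for Adgre4 and none for Adgre1 or Adgre5. The window is chr17:55749734-55750033 on the plus strand and runs from 250 bases before the annotated start to 50 after it. Capitals mark the matches to AGTTCA, one of the core motifs of the retinoic acid receptors, and to GAGGAA, the core of the motif of the myeloid factor PU.1, on either strand.
Adgre4: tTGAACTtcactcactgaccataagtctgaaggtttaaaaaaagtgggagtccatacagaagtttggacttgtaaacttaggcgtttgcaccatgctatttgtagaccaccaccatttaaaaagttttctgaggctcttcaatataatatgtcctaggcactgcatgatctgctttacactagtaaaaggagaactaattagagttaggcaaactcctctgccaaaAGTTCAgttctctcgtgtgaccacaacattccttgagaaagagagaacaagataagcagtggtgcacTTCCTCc
The first AGTTCA match lay on the opposite strand from -249 to -244, counted from the start, and the second on the strand of the gene from -24 to -19. The GAGGAA match lay on the opposite strand from 44 to 49, and none of the 3 matches overlapped another. Of 32817 promoter windows of the same length, 14% held AGTTCA and 28.3% held GAGGAA. The related core motif AGGTCA, which 16.3% of windows held, was not among the letters of this one. Direct repeats built from the motif AGGTCA, from AGTTCA, from the motif GGGTCA and from the motif GGTTCA in any pairing, spaced by 1, 2 or 5 bases, present in 0.222%, 0.268% and 0.0975% of windows on either strand, were not there either. These matches describe the letters of the window only.

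Adgre4 was far higher with retinoic acid. Its probe set, 17338617, read 2547 and 1334 intensity units on RA replicates 1 and 2, against 151 and 120 units on DMSO replicates 1 and 2. On the log2 scale these levels were 11.31 and 10.38 with RA and 7.24 and 6.91 with DMSO. The groups did not overlap: the lower RA array was 8.85 times the higher DMSO array, and the higher RA array 21.2 times the lower DMSO array. The means were 10.85 ± 0.66 with RA and 7.07 ± 0.23 with DMSO (log2 intensity, SD, n = 2 each), a difference of 3.77 ± 0.33 (limma's standard error, SE), or 13.7-fold. Ordered by this difference, Adgre4 was number 5 of the 22180 genes. Its DMSO level lay above 6.35, which serves here as a guide to dim signals: 95% of 1405 probe sets of olfactory and vomeronasal receptors had a lower mean log2 intensity.

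The RA arrays were unlike each other for Adgre4. RA replicate 1 was 1.91 times RA replicate 2, a gap of 0.93 on the log2 scale, and only 0.838% of the 39720 probe sets tested had an RA gap as large. The DMSO arrays were 0.33 apart, a gap reached by 9.91% of probe sets. Without RA replicate 1 the difference was 3.31, or 9.91-fold, and without RA replicate 2 it was 4.24, or 18.9-fold. The high level was present on both RA arrays, and its size depended on which of them was taken.

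Adgre1, the gene of F4/80, was bright in every array. Its probe set, 17339013, read 1988 and 1919 units on RA replicates 1 and 2, against 1616 and 987 units on DMSO replicates 1 and 2. The RA arrays lay close together and above both DMSO arrays, and the lower RA array was 1.19 times the higher DMSO array. Group means were 10.93 ± 0.04 with RA and 10.30 ± 0.50 with DMSO (log2 intensity, SD, n = 2 each). The difference of 0.63 ± 0.24 (SE), or 1.55-fold, did not pass limma's test (adjusted p = 0.376, over all probe sets tested, of which 2.09% passed an adjusted p of 0.05). The 95% interval of the difference ran from 0.997-fold to 2.40-fold, so these arrays leave room for a level with RA that is the same as with DMSO or more than 2-fold higher. Of all genes, 25% had both RA arrays above both DMSO arrays, so this order alone does not set Adgre1 apart.

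For Adgre1 the spread sat in the DMSO group. DMSO replicate 1 was 1.64 times DMSO replicate 2, a gap of 0.71 (log2) that only 1.46% of probe sets reached, whereas the RA gap of 0.05 was reached by 75.6%. Without DMSO replicate 2 the difference was 0.27, or 1.21-fold, and without DMSO replicate 1 it was 0.98, or 1.98-fold, and neither passed (adjusted p = 0.636 and 0.118, limma). Adgre4 and Adgre1 were both higher on DMSO replicate 1 than on DMSO replicate 2, and both higher on RA replicate 1 than on RA replicate 2, by unlike amounts.

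The probe set listed for Adgre5 and Ddx39a together, 17510948, cannot be assigned to either gene. It read 2884 and 2850 units on the RA arrays, against 350.2 and 384 units on the DMSO arrays. Ddx39a, an RNA helicase gene that neighbours Adgre5, also has a probe set of its own, 17502976, with log2 levels of 9.27 and 9.29 with RA and 9.16 and 9.25 with DMSO. The shared probe set was thus several-fold brighter on both RA arrays, while the one belonging to Ddx39a alone differed by 0.08 ± 0.08 (log2, SE, adjusted p = 0.756, limma).

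**Figure D1:**
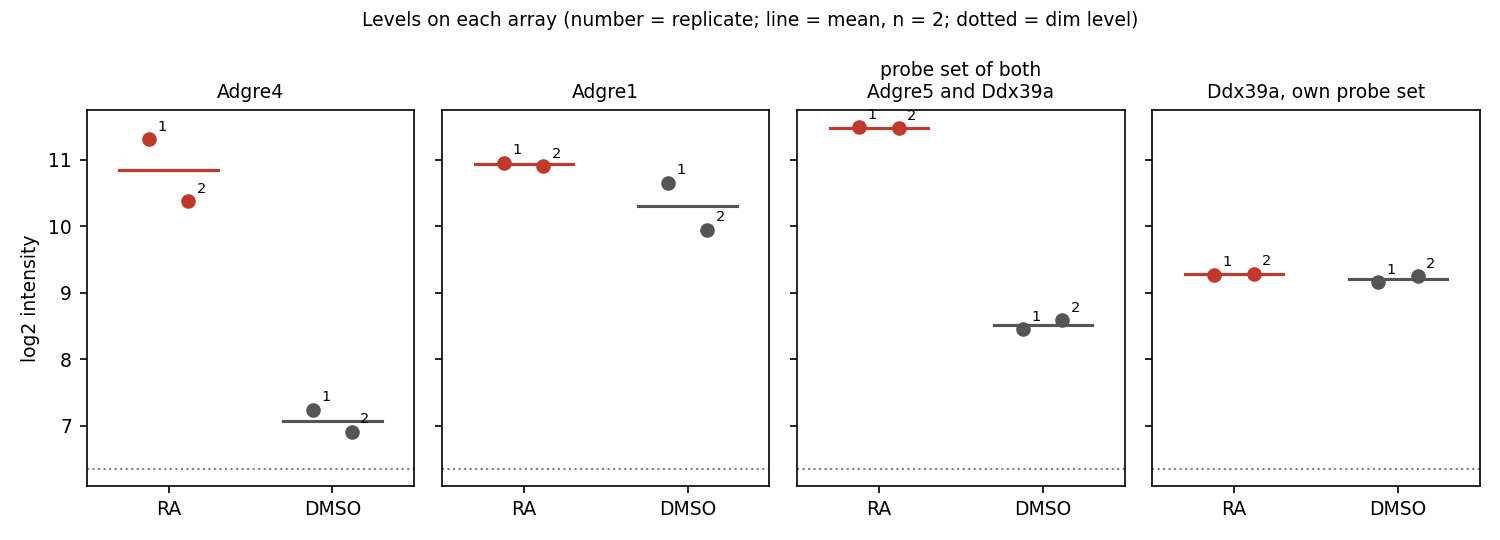
Log2 intensity (vertical axis) on each array for Adgre4, Adgre1, the probe set listed for both Adgre5 and Ddx39a, and the probe set of Ddx39a alone; points are arrays numbered by replicate, lines are means of 2 arrays, and the dotted line is the dim level of 6.35. Adgre4 and the shared probe set stand far higher on the RA arrays, Adgre1 is bright in both groups with DMSO replicate 2 lowest, and Ddx39a is level.

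The wider adhesion receptor family gives the setting for these values. Of 27 other members listed, 25 had a probe set of their own. Of these, 2 rose with RA and 0 fell by limma (adjusted p under 0.05), where 3.07% of all genes passed, 1.28% higher and 1.79% lower, and 5 of the 25 had an unadjusted p under 0.05, against 15.1% of all genes. The median log2 difference of the 25 was 0.10, beside 0.01 over all genes. Both RA arrays lay above both DMSO arrays for 9 of the 25, where 25% of all genes lay above. They lay below both DMSO arrays for 5, where 23% of all genes lay below. For 12 of the 25 both group means were under the dim level.

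Adgrg3, or Gpr97, a receptor known from granulocytes, had log2 levels of 9.16 and 9.06 with RA and 8.23 and 8.09 with DMSO. It rose 1.93-fold (log2 difference 0.95 ± 0.09, SE, adjusted p = 0.0212, limma). Adgra3, or Gpr125, had levels of 7.49 and 7.56 with RA and 6.96 and 6.92 with DMSO. It rose 1.49-fold (0.58 ± 0.08, adjusted p = 0.0471, limma), a value just inside the threshold. Adgrg7 and Adgrg6 did not pass and differed by more than Adgre1 did.
Adgrg7, or Gpr128, a gene known from the gut, differed by 0.73 ± 0.11 (adjusted p = 0.0655, limma). Adgrg6, or Gpr126, which Schwann cells need to form myelin, differed by -0.86 ± 0.16 (adjusted p = 0.102, limma), with levels of 6.93 and 6.73 with RA and 7.88 and 7.49 with DMSO. The other 21 measured members lay between Adgrg1 at -0.18 and Adgrb3 at 0.25. Adgrb3 was under the dim level in both groups. Adgrl1, a latrophilin whose gene stands beside Adgre5, differed by 0.17 ± 0.09 (adjusted p = 0.542, limma).

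**Figure D2:**
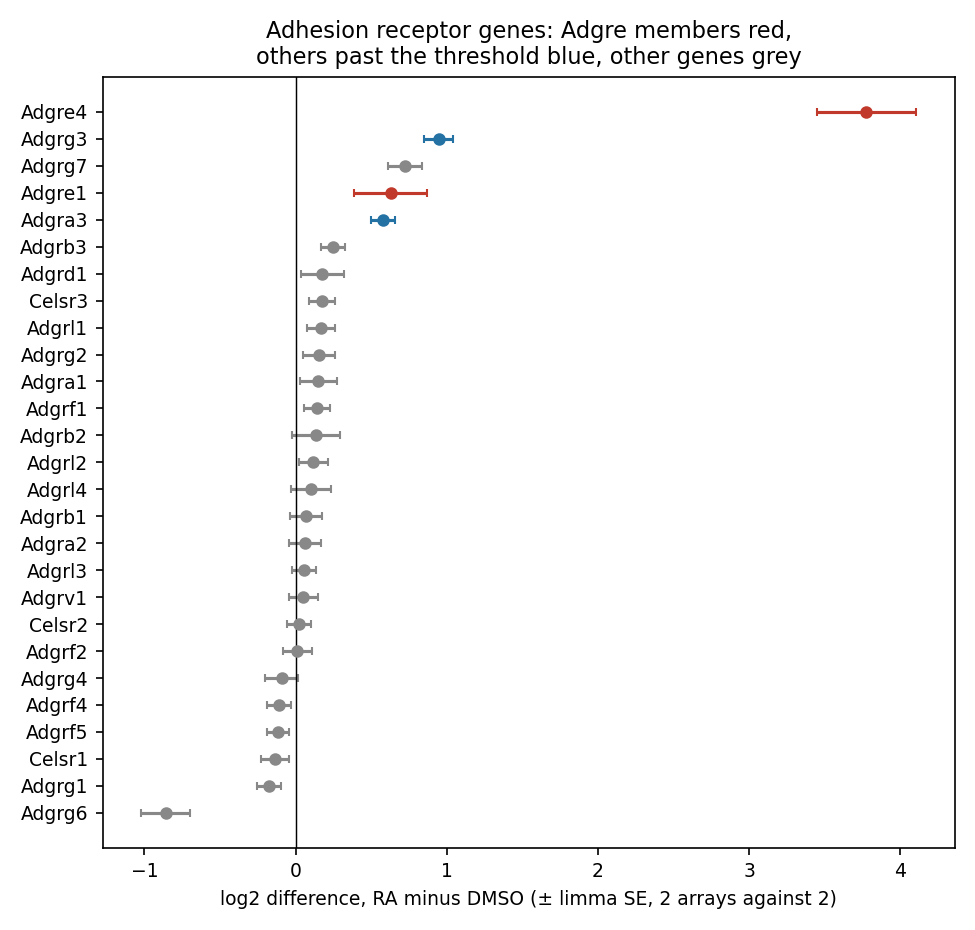
Difference in log2 intensity, RA minus DMSO (horizontal axis, with limma's standard error, 2 arrays against 2), for Adgre4, Adgre1 and 25 other adhesion receptor genes (vertical axis). Adgre4 stands at 3.77 and Adgre1 at 0.63, and the others lie between -0.86 for Adgrg6 and 0.95 for Adgrg3.

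No gene of the list of binding partners and signalling proteins passed the test. The list held ligands of CD97, Lpar1, which CD97 is known to join in human tumour cells, and the G protein, small GTPase and arrestin genes through which adhesion receptors act. Of 18 genes, 17 were measured, 0 passed limma's adjusted threshold, where 3.07% of all genes did, a share at which a list of this length may hold none. Of the 17, 5 had an unadjusted p under 0.05, against 15.1% of all genes, and the median difference was -0.03. Among the ligands, Cd55 had log2 levels of 5.44 and 5.30 with RA and 5.28 and 5.52 with DMSO, under the dim level on all 4 arrays. Cd55b was under it too, and Thy1 differed by -0.17 ± 0.11. Of the integrin genes, Itgb3 differed by 0.41 ± 0.11 (adjusted p = 0.225, limma) and Itga5 by -0.27 ± 0.08 (adjusted p = 0.251, limma). Itgb1, the common integrin beta chain, was bright in both groups and differed by 0.07 ± 0.08. Further down the pathway, the G protein alpha genes Gna12 and Gna13 differed by 0.02 ± 0.12 and 0.002 ± 0.100, and Rhoa, the small GTPase they act on, by -0.11 ± 0.08.

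Genes used beside F4/80 to describe macrophages moved in both directions. Of 17 listed, 16 were measured, 2 rose, 1 fell and 13 did not pass, where 3.07% of all genes passed. At an unadjusted p under 0.05 stood 7 of the 16, against 15.1% of all genes, and the median difference was 0.10. The complement genes C1qb (2.20-fold, adjusted p = 0.0210, limma) and C1qc (1.77-fold, adjusted p = 0.0293, limma) rose. Spi1, which encodes PU.1, a factor known to act at the Adgre1 promoter, fell, with log2 levels of 10.02 and 10.01 with RA and 10.61 and 10.75 with DMSO (difference -0.66 ± 0.09, adjusted p = 0.0438, limma). Mertk, a receptor for dying cells, had its lowest and widest values in the DMSO group, as Adgre1 did, but on unlike arrays. The lowest array was DMSO replicate 1 for Mertk and DMSO replicate 2 for Adgre1. Mertk read 9.01 and 9.19 with RA and 7.76 and 8.37 with DMSO (1.04 ± 0.22, adjusted p = 0.130, limma). Fcgr1, the high-affinity IgG receptor, differed by 0.60 ± 0.12 (adjusted p = 0.116, limma), and Csf1r, the receptor of the macrophage growth factor, by -0.005 ± 0.075. Vsig4, Timd4, Siglec1 and Cd163, markers of resident macrophages in tissues, were under the dim level in both groups.

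Other genes known from Ly6C-low monocytes, the blood cells that carry Adgre4, were split as well. Of 15 measured, 2 rose, 2 fell and 11 did not pass, again beside 3.07% of all genes passing. An unadjusted p under 0.05 was found for 7 of the 15, against 15.1% of all genes, and the median difference was 0.08. Apoc2, an apolipoprotein gene, rose 1.76-fold (adjusted p = 0.0212, limma), and the transcription factor gene Pou2f2 rose 1.60-fold from a DMSO level under the dim level (adjusted p = 0.0331, limma). The integrin gene Itgal fell, with log2 levels of 8.41 and 8.65 with RA and 10.41 and 10.50 with DMSO (difference -1.92 ± 0.11, adjusted p = 0.00647, limma). The tetraspanin gene Cd9 fell as well (-1.16 ± 0.09, adjusted p = 0.0130, limma). A second, dimmer probe set of Cd9 differed by -0.08 ± 0.12. Nr4a1, the factor that Ly6C-low monocytes require, differed by -0.06 ± 0.13, and Cx3cr1, their chemokine receptor, by 0.16 ± 0.12. Treml4, another surface marker of these cells, differed by 0.67 ± 0.17 (adjusted p = 0.186, limma). Spn, of the same list, went the other way, at -0.52 ± 0.09 (adjusted p = 0.0785, limma).

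The calls in these lists depended on the fit. None of the adhesion receptor, macrophage or Ly6C-low monocyte genes above passed limma's test when any 1 array was left out, or when probe sets with a constant value on all 4 arrays were kept in the fit.

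**Figure D3:**
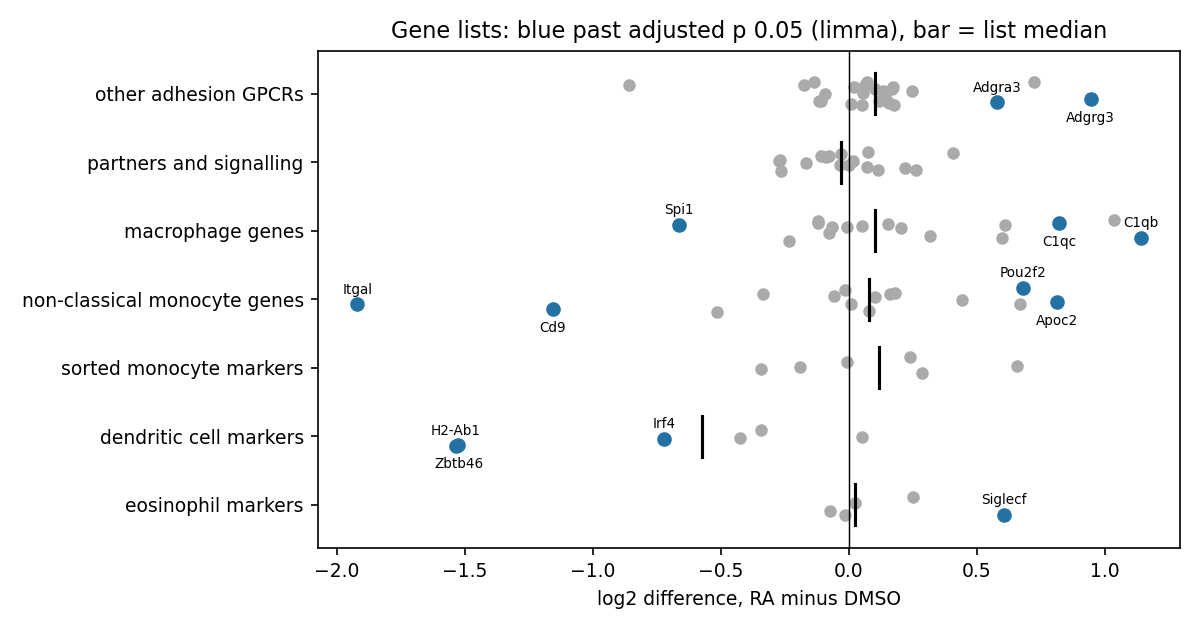
Difference in log2 intensity, RA minus DMSO (horizontal axis), of each measured gene in 7 lists (rows); blue points passed limma's adjusted p of 0.05 and are named, grey points did not, and bars are list medians. Called genes lie on both sides of 0 in the macrophage and Ly6C-low (non-classical) monocyte lists, and the list of partners and signalling has none.

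Markers of the sorted cells were bright in all arrays. Ly6c2, Ccr2, Itgam, Csf1r, Lyz2 and Cd14 were above the dim level in both groups. Of these 6, 0 passed limma's test and 3 had an unadjusted p under 0.05. Beside all marker counts here stand the shares of all genes, 3.07% passing and 15.1% at an unadjusted p under 0.05 (limma). Of 6 dendritic cell markers, Zbtb46, H2-Ab1 and Irf4 fell. The summed intensity of the list was 10119 to 10260 units with RA and 19222 to 19923 units with DMSO. A large part of that gap lay in H2-Ab1, with 3519 and 3489 units with RA and 10380 and 9965 units with DMSO. Cd209a had 2 probe sets, and the one that stands for it, brighter only on average over all 4 arrays, did not pass. The other fell, with 153 and 149 units with RA against 2475 and 2778 units with DMSO (log2 difference -4.12 ± 0.09, adjusted p = 0.00172, limma). Of 5 markers of eosinophils, which also carry F4/80, Siglecf rose (0.61 ± 0.08, adjusted p = 0.0488, limma) and 4 did not pass. The eosinophil sum was 651 to 666 units with RA and 501 to 508 units with DMSO, and without Siglecf it was 247 to 283 units with RA and 242 to 251 units with DMSO, with Ccr3 and Il5ra under the dim level in both groups. Of 7 neutrophil markers Cxcr2 fell, and their sum was 12261 to 12343 units with RA and 13680 to 14067 units with DMSO. Without Cxcr2 the neutrophil sums overlapped, at 11050 to 11127 units with RA and 10782 to 11564 units with DMSO. Of 12 markers of B, T or NK, erythroid and basophil or mast cells, 0 passed limma's test and 2 had an unadjusted p under 0.05. The part of any of these cells in the levels of Adgre4 and Adgre1 was not tested. When probe sets with a constant value were kept in the fit, 0 probe sets passed, so none of these marker calls held.

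The genes nearest to Adgre4 in profile, by Euclidean distance between log2 values centred on each gene's mean over the 4 arrays, were Aldh1a2, Cyp26a1, Acp5, Gm19765 and Rbpms. Their distances ran from 0.67 to 0.98, against a range of 4.41 for Adgre4 itself. Aldh1a2, an enzyme that makes retinoic acid, had log2 levels of 11.17 and 11.13 with RA and 7.28 and 7.21 with DMSO. Cyp26a1, which breaks it down, had 9.62 and 9.69 with RA and 5.71 and 5.33 with DMSO. Of these 5 genes, Gm19765 had the widest RA gap, with 9.90 and 9.55, so none had one like that of Adgre4.

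The genes nearest to Adgre1 were Gpnmb, Selp and Trem1, at distances of 0.14 to 0.19 against a range of 1.01. Gpnmb, a glycoprotein gene of macrophages, had log2 levels of 10.39 and 10.35 with RA and 10.27 and 9.43 with DMSO. Trem1, a receptor that amplifies inflammation, had 8.91 and 8.90 with RA and 8.48 and 8.03 with DMSO. As for Adgre1, DMSO replicate 2 was the lowest array for each of the 3, which follows from choosing them for a like profile. Profiles over 4 arrays are few points, and likeness here describes these arrays only.

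**Figure D4:**
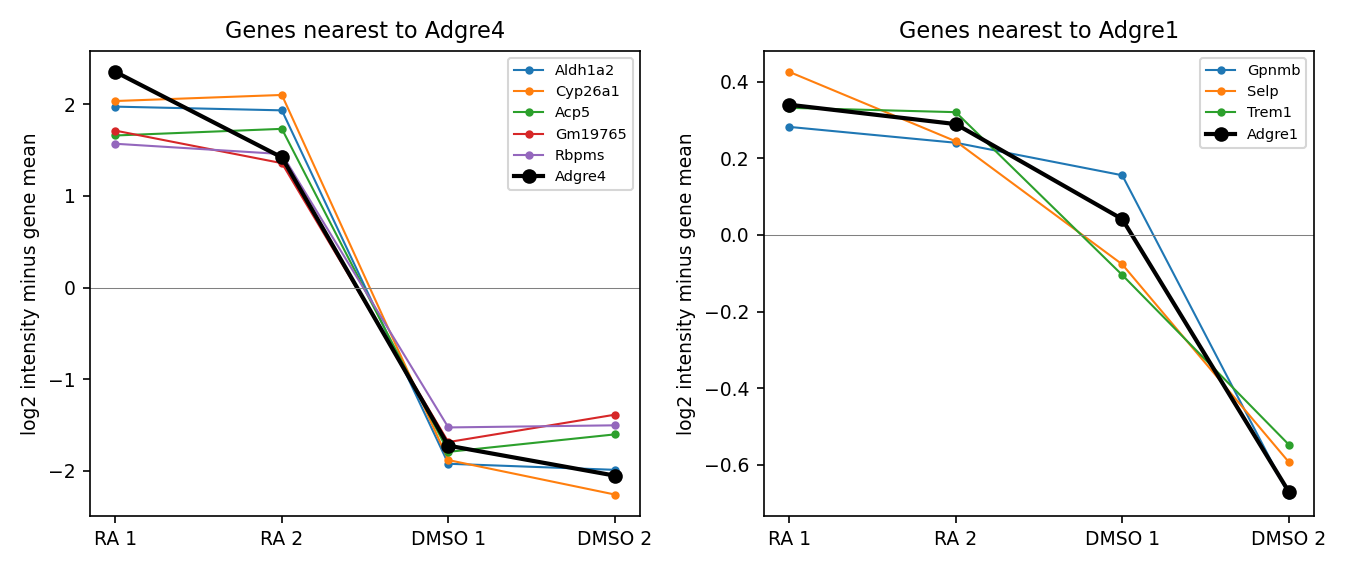
Log2 intensity minus the mean of the gene over the 4 arrays (vertical axis) on each array (horizontal axis) for Adgre4 with its 5 nearest genes and for Adgre1 with its 3 nearest. Adgre4 drops between RA replicates 1 and 2 while Aldh1a2, Cyp26a1 and Acp5 stay level, and DMSO replicate 2 is the low point of Adgre1, Gpnmb, Selp and Trem1.

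Adgre4 and Adgre1 lie on mouse chromosome 17 in the RefSeq gene table, and Adgre5 on chromosome 8. Beside Adgre4, the telomere protein gene Pot1b had log2 levels of 9.58 and 9.42 with RA and 8.25 and 8.36 with DMSO, and it rose 2.29-fold (adjusted p = 0.0138, limma). This call depended on the fit. Pot1b did not pass with the constant probe sets kept (adjusted p = 0.0837, limma) or with the replicate block (adjusted p = 0.0764, limma). The other measured neighbours of Adgre4 were Vmn2r118, Zfp119a and Zfp959, which differed by 0.11 ± 0.09, 0.53 ± 0.35 and 0.01 ± 0.08 and did not pass. Zfp119a was, like Adgre4, higher on RA replicate 1 than on RA replicate 2, at 6.83 and 5.80 (log2). Its DMSO levels were 5.65 and 5.91, and both its group means were under the dim level. Of 66 measured genes whose starts lie between those of Adgre4 and Adgre1, 0 passed limma's test, against 3.07% of all genes, and 13 had an unadjusted p under 0.05, against 15.1% of all genes, with a median difference of 0.01. Next to Adgre1, the signalling gene Vav1 differed by -0.05 ± 0.08 and Gpr108 by -0.19 ± 0.09. On its other side, Vmn2r120 differed by 0.16 ± 0.10 and Cntnap5c by 0.02 ± 0.12. Around Adgre5, Gipc1 differed by -0.04 ± 0.08 and Asf1b by 0.004 ± 0.086.

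The 4 arrays had median intensities of 80.0 to 81.8 over the probe sets tested, and their log2 values correlated across probe sets at 0.9931 and 0.9943 within groups and at 0.9841 to 0.9879 between them.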

How the data were processed

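Total RNA of 4 samples was labelled from 250 ng and read on 1-colour whole-transcript arrays, per the labels' protocols. The deposited values are intensities on a linear scale, 1 for each array and probe set; Affymetrix Expression Console and RMA (background correction, quantile normalization and probe summary) are named in the submitters' processing notes, with versions and genome build not given in the sources used here. RMA understates differences of dim probe sets, and the number of arrays limits the precision.

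Intensities were transformed to log2 here. Of 41345 probe sets, 1625 held 1 constant value on all 4 arrays and were left out, which left 39720. The platform annotation gave 23521 probe sets 1 symbol, 1814 several and 16010 none; 23328 gene identifiers were found in RefSeq (GRCm38.p6), and 0 symbols changed. Where a gene had several probe sets, the brightest on average stood for it. RA was compared with DMSO by limma 3.58.1 in R 4.3.3 (lmFit, eBayes, two-sided, Benjamini-Hochberg over all probe sets, threshold 0.05). The code was run on simulated data drawn from limma's own fitted variance model. Those data held no constant probe sets and no replicate structure, so the check cannot speak to either. With 2 arrays a group, the smallest p of an exact permutation test is 0.333. A test of Adgre5 was planned and not run, since its probe set carries 2 symbols. Alternatives varied the probe sets tested, the variance model, the normalization, an offset, the replicate block and the arrays.

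The members and lists were chosen with earlier results of these data known. Named were the members, up to 5 called genes of each list, partner genes, genes nearest in profile (5 for Adgre4, 3 for Adgre1, whose range over the arrays was at least 1) and the nearest 2 measured genes on either side of each member. Genes added after their values were seen were Adgrg6, Adgrg7, Adgrg1, Adgrb3, Mertk, Fcgr1, Csf1r, Treml4, Spn, Nr4a1, Cx3cr1, Vsig4, Timd4, Siglec1 and Cd163.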

Additional observations from a re-analysis of the deposited data

Results flagged for a closer look

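Probe set 17510948, annotated to both Adgre5 and Ddx39a, was outside the members and carried a signal well above its level with DMSO. Its log2 levels were 11.49 and 11.48 with RA and 8.45 and 8.58 with DMSO. The difference was 2.97 ± 0.09 (log2, SE), or 7.82-fold (limma adjusted p = 0.00205). The difference was 2.86 to 3.03 in the 6 alternatives that can move it. The probe set passed the threshold in 10 of the 11 alternatives that could give it and missed it with the constant probe sets kept (adjusted p = 0.0536). The probe set of Ddx39a alone differed by 0.08 ± 0.08 (adjusted p = 0.756). Which transcript the shared probe set reads was not tested.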

How the results depend on the processing

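Of 12 alternatives, 6 can move a difference of group means; the others change only its error or the probe sets tested. Adgre4, chosen for its rise, differed by 3.31 to 4.24 when 1 array was left out, 3.49 with an offset of 32 and 3.78 with quantile normalization. Adgre1 differed by 0.27 to 0.98 without 1 array and did not pass under any of the 12. Of 39720 probe sets, 831 passed, and 0 did with the constant probe sets kept (smallest adjusted p = 0.0535, 6260 at an unadjusted p under 0.05), 1636 among probe sets with 1 symbol, 161 with the replicate block, and 25, 55, 41 and 41 without RA replicate 1, RA replicate 2, DMSO replicate 1 and DMSO replicate 2. Counts of other adhesion receptors called (2 as reported) were 0 with constant probe sets kept, 4 with 1 symbol only, 1 with a mean-variance trend, 1 with quantile normalization, 0 with the replicate block and 0 whichever array was left out. Macrophage genes (3 as reported) came to 0, 6, 0 and 0 with constant probe sets kept, 1 symbol only, the replicate block and 1 array left out, and Ly6C-low monocyte genes (4 as reported) to 0, 7, 1 and 0 under the same settings. Partners and signalling genes called stayed at 0 under all 12. Deviations of same-numbered arrays correlated at -0.25, and the labels give the numbers no meaning; a crossed pairing as the replicate block, added after the data were seen, called 457 probe sets, 0 adhesion receptors, 1 macrophage gene and 2 monocyte genes.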
